A study of Homo sapiens with 8 samples.

Results

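The genes of oxidative phosphorylation were followed across 3 lines of SH-SY5Y cells. The nuclear members were chosen by symbol, with hyphenated symbols left out. They carry the stem of a subunit of complex I (NDUFA, NDUFB, NDUFC, NDUFS and NDUFV), complex II (SDHA to SDHD), complex III (UQCR and CYC1), complex IV (COX4 to COX8) or ATP synthase (ATP5F, ATP5M and ATP5P). This rule found 96 of 47591 entries in the expression table. Of these 79 are subunit genes, 9 are isoforms of other tissues or recent copies and 4 are pseudogenes (SDHAP1, SDHAP2, SDHAP3 and UQCRBP1). The other 4 are the assembly factors SDHAF1, SDHAF2, SDHAF3 and SDHAF4, whose symbols start like those of the subunits. NDUFA4 and its paralogue NDUFA4L2 were placed with complex IV. For the mitochondrial genome the rule asked for coding genes with the prefix MT-, which 0 entries carry. The table has 17 unnamed entries on the mitochondrial chromosome, and 4 of them hold the 13 coding genes of the GENCODE annotation (short entries inside these genes were left out), so 100 entries were followed in all.

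SH-SY5Y is a human neuroblastoma line used as a model of neuronal cells. The G2 line (3 libraries) was edited by CRISPR/Cas9 using a guide that targets the splicing factor PRPF40B. The SCR line (3 libraries) received a scrambled control guide, and the WT line (2 libraries) was not edited. Polyadenylated RNA of each library was sequenced in pairs on an Illumina platform, and the table gives 1 value per gene and library, a read count divided by a DESeq2 size factor, called normalized count here. All lines grew in high-glucose DMEM with serum, and G2 and SCR, but not WT, were also kept in puromycin. Colonies of the edited cells came from limiting dilution, without a statement for SCR or of how many colonies the libraries stand for. The guide and the colony therefore cannot be told apart in G2/SCR (G2 compared with SCR), nor guide, colony and puromycin in G2/WT and SCR/WT. The labels number the libraries as biological replicates and do not say from which cultures they came, so p-values measure the spread between these libraries.

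Complexes I to IV make up the electron transport chain of the inner mitochondrial membrane. Complexes I and II pass electrons from NADH and succinate to ubiquinone, complex III passes them on to cytochrome c, and complex IV hands them to oxygen. Complexes I, III and IV pump protons, and ATP synthase (complex V) uses the gradient to make ATP. Complex II is encoded by the nucleus alone, whereas the other complexes join nuclear subunits with subunits encoded by mitochondrial DNA, so their making draws on both genomes. Nuclear subunit genes are known to share promoter motifs for NRF1, for ETS factors such as GABPA, and for YY1.

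Promoter sequences from RefSeq (GRCh38.p14), from 250 bases before to 50 bases after the gene start, were at hand for 65 of the 79 subunit genes and for 27305 genes in all. The NRF1 motif, written GCGCANGCG and searched on both strands, lay in 22 of the 65 subunit promoters (33.8%) and in 8.05% of all promoters. The ETS motif CCGGAAG lay in 20 (30.8%, against 10.7%) and the YY1 motif AAGATGGC in 11 (16.9%, against 3.03%). At least 1 of the 3 motifs was found in 41 of the 65 (63.1%, against 19.2%). The GC-box GGGCGG, which marks many promoters, was found in 40 (61.5%, against 44.6%). For 6 genes whose values are given below, the 150 bases before the start are printed 5′ to 3′ on the strand of the gene, with matches to the NRF1, ETS or YY1 motif in capitals. NDUFS7, UQCRH and COX5B had the largest falls of their complexes in G2/SCR, NDUFB4 fell in both G2 comparisons, and NDUFB2 and SDHD had the largest rises of complexes I and II.
NDUFS7, chr19:1383757-1383906, plus strand: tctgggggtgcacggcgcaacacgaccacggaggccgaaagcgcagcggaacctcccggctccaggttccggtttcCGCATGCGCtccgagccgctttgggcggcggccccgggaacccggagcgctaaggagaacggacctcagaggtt
NDUFB4, chr3:120596186-120596335, plus strand: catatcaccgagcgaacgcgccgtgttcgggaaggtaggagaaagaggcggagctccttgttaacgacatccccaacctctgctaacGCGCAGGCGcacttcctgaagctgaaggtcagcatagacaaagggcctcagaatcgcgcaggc
UQCRH, chr1:46303548-46303697, plus strand: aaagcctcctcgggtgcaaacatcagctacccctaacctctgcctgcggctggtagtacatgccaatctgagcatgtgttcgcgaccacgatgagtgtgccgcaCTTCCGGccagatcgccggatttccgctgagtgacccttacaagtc
COX5B, chr2:97645912-97646061, plus strand: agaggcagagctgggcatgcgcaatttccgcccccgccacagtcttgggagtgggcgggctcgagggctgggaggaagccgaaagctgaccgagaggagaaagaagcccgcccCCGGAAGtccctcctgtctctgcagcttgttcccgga
NDUFB2, chr7:140696558-140696707, plus strand: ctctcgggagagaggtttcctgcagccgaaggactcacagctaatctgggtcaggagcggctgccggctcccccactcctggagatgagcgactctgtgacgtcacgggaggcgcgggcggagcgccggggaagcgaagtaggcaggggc
SDHD, chr11:112086723-112086872, plus strand: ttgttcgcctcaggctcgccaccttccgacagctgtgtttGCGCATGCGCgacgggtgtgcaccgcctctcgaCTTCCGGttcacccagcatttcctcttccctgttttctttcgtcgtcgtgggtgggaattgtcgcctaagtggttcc
The printed stretches of NDUFS7 and NDUFB4 each hold 1 match to the NRF1 motif, those of UQCRH and COX5B each hold 1 ETS match. That of SDHD holds a palindromic NRF1 match, read on either strand, and 1 ETS match, and that of NDUFB2 holds none of the 3 motifs. A match describes the letters of the sequence and is no measurement of binding.

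PRPF40B, the targeted gene (chromosome 12), had normalized counts of 840.2, 841 and 918 in G2, 1686, 1672 and 1669 in SCR and 1972 and 1668 in WT. The 3 G2 libraries lie below every control. The log2 fold change was -0.95 (SE 0.08, adjusted p = 7.4e-07) in G2/SCR and -1.07 (SE 0.09, adjusted p = 7.9e-07) in G2/WT by limma with Benjamini-Hochberg adjustment. A two-sided exact permutation test of G2 against the 5 controls gave p = 0.0179, the smallest that its 56 groupings allow. The recovered library totals were 59804395 to 81080747. Of the small counts 64.2% to 68.4% are multiples of 3, so a recovered count need not be a separate fragment. Division by 3 would give 19934798 to 27026916 fragments. The other small counts are no multiples of 3, so the depth in fragments is uncertain. Genes of ribosomal RNA and genes with symbols starting with RN7S, counted together, took 4.97% and 4.75% of the WT values and 0.388% to 0.599% of the others. The labelled cell type was checked with adrenergic neuroblast markers fixed as a list. Their summed normalized count was 356647 to 393473 in the 5 controls and 275490 to 279516 in G2. At adjusted p (limma, up to 0.05) 10 of 12 were lower and 1 higher in G2/SCR, against 23.4% and 25.7% of all genes tested. Mesenchymal markers summed to 282616 to 287475 in G2, 115228 to 122501 in SCR and 82082 and 93867 in WT, with 10 of 11 tested higher and 1 lower in G2/SCR by the same rule. FN1, a defining marker, was at or near 0 in every library, and TH of the adrenergic list was near the floor. The summed glial markers were 170 to 599, with SOX10 and GFAP at or near 0. In these bulk samples fewer cells of a type and less RNA per cell cannot be told apart, and the part of these marker changes in the results below was not tested.

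Most nuclear subunit genes had lower values in G2 than in either control line, by little against SCR and by more against WT. In G2/SCR the median log2 fold change of the 78 subunit genes tested was -0.09 (interquartile range -0.23 to 0.02), with 23 higher and 55 lower. In G2/WT it was -0.38, with 7 higher and 71 lower, and in SCR/WT it was -0.30, with 2 higher and 76 lower. Over all 18947 genes tested the medians were -0.01, 0.00 and 0.01 in the 3 comparisons. Over the 8169 genes whose mean reached 1000 or more, as it does for every tested subunit, they were 0.01, -0.07 and -0.09. The comparisons share libraries (each line stands in 2 of them), so these values are set side by side and are not independent.

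**Figure D1:**
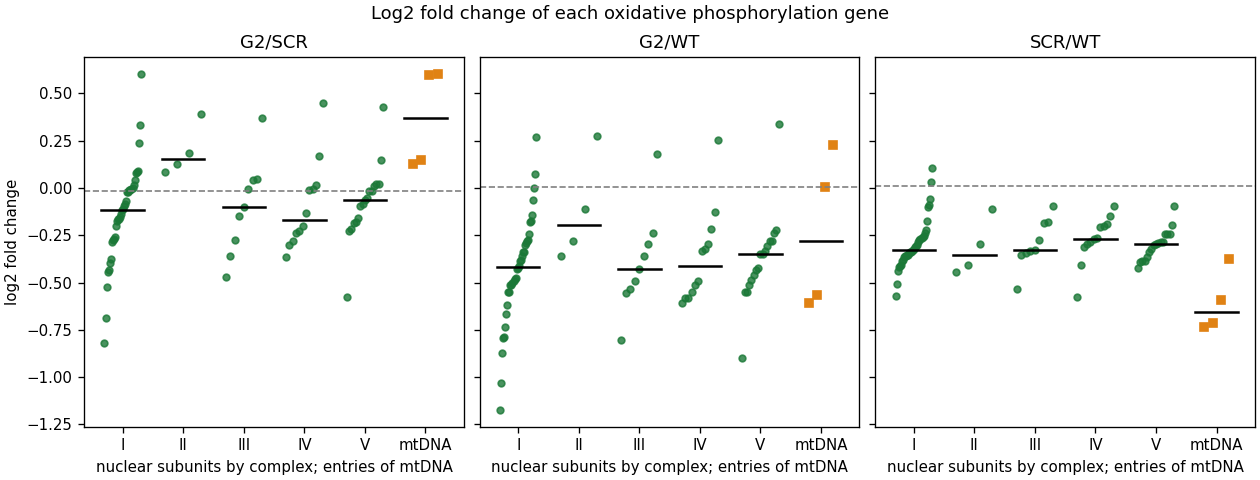
Log2 fold change (vertical axis) of each tested nuclear subunit gene by complex and of the 4 mitochondrial DNA entries (squares) in G2/SCR, G2/WT and SCR/WT; black bars are medians and the dashed line is the median of all genes tested. Most subunits lie below the line in G2/WT and SCR/WT, the 4 genes of complex II lie above it in G2/SCR, and with equal library totals the subunit median of SCR/WT comes to -0.02 beside an all-gene median of 0.29.

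Genes were called by 2 rules, an adjusted p up to 0.05 (limma, Benjamini-Hochberg over all genes tested), or a fold change of at least 1.5 with an unadjusted p up to 0.05. In G2/SCR 27 of 78 subunits (34.6%) were lower and 8 (10.3%) higher at adjusted p, against 23.4% and 25.7% of all genes tested. In G2/WT 64 (82.1%) were lower and 5 (6.41%) higher, against 25.4% and 27.2%. In SCR/WT 56 (71.8%) were lower and 0 higher, against 18.3% and 17.0%, and at an unadjusted p up to 0.05 64 were lower and 0 higher (limma). Among the genes averaging 1000 or more the lower shares were 28.0%, 38.8% and 33.0%. With the fold minimum few subunits were called. In G2/SCR NDUFS7 and NDUFB4 were lower (2.56% of 78, against 11.8%) and NDUFB2 higher (1.28%, against 15.1%). In G2/WT 11 were lower (14.1%, against 12.2%) and 0 higher (against 17.7%), and the 11 became 6 without WT replicate 1 and 32 without WT replicate 2. In SCR/WT 0 were called, against 5.63% lower and 10.7% higher, with 9 lower without WT replicate 2. The 11 were NDUFS5, NDUFS6, NDUFS7, NDUFS8, NDUFV1, NDUFA11, NDUFB4 and NDUFB7 of complex I, UQCRH, COX5A and ATP5F1D. NDUFS5, NDUFS8, NDUFV1, NDUFB7 and COX5A fell under the fold minimum without WT replicate 1 (-0.56 to -0.40), and COX5A also without G2 replicate 1 or G2 replicate 3 (both -0.58). In 37 of 78 subunits all 3 G2 libraries lay below the 5 controls (against 19.7% of all genes) and in 5 above them (against 22.8%), the 5 being NDUFB2, SDHD, UQCRB, COX6C and ATP5F1E.

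The size of these counts depends on single libraries. In G2/SCR the 27 lower calls became 15 without G2 replicate 1 and 16 without SCR replicate 1, and 20 of the 35 calls (14 lower and 6 higher) held whichever library was left out. The WT libraries stood apart: 77 of 78 subunits were higher in WT replicate 1 than in WT replicate 2, by a median of 0.31 on the log2 scale, against 0.03 over all genes. In SCR/WT the median was -0.16 with 33 lower calls without WT replicate 1, and -0.47 with 75 without WT replicate 2; in G2/WT it was -0.27 and -0.53, with 49 and 71 lower calls. In the deposited scaling WT replicate 2 had a summed subunit level (1428320) above the 3 SCR libraries (1287850 to 1316730) and the 3 G2 libraries (1226580 to 1241720). As a share of all values it lay below SCR, at 2.00% against 2.10% to 2.15%, and above G2, at 1.88% to 1.90%.

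Scaling moves these comparisons, as the normalized values summed to 71294311 and 77225106 in WT and to 61135884 to 65484633 in the other libraries. With equal library totals the median over all genes shifted to -0.10 in G2/SCR, 0.19 in G2/WT and 0.29 in SCR/WT, and the subunit medians became -0.18, -0.20 and -0.02. The subunit medians lay -0.08, -0.39 and -0.31 from the median of all genes, a distance that a change of library scaling leaves as it is by construction. The counts moved with the shift. At adjusted p and with equal totals the subunits were 42 lower and 6 higher in G2/SCR, 42 lower and 5 higher in G2/WT, and 5 lower and 5 higher in SCR/WT. This stands beside 30.3%, 15.8% and 5.83% of all genes lower and 21.0%, 36.5% and 39.4% higher. As a share of all values other than ribosomal RNA, RN7S and mitochondrial entries, the subunits took 1.92% to 1.94% in G2, 2.14% to 2.19% in SCR and 2.47% and 2.15% in WT.

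**Figure D2:**
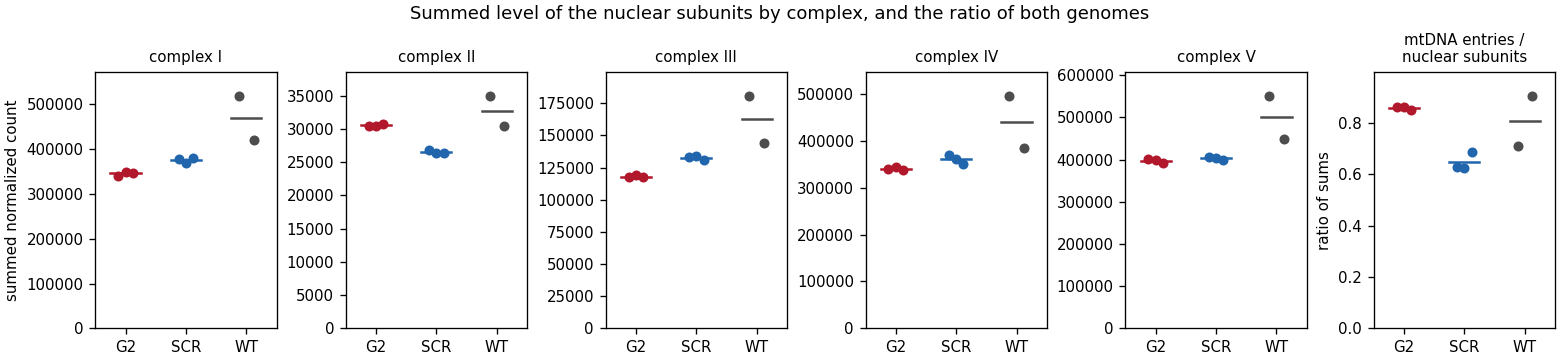
Summed normalized counts (vertical axes, from 0) of the nuclear subunit genes of complexes I to V in each library, and the ratio of the 4 mitochondrial DNA entries to all nuclear subunits; points are libraries and bars are group means. G2 is lowest for complexes I, III and IV, SCR is lowest for complex II, and in the deposited scaling plotted here WT replicate 1 is the highest library for each complex.

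Complex I, the entry point for electrons from NADH, has 37 nuclear members, of which 36 were tested. NDUFS1 was listed at 0 in all libraries but SCR replicate 3. Its entry is merged with GCSHP3, so these values cannot be read as the level of NDUFS1. The summed level of the complex was 341305 to 349184 in G2, 369457 to 379881 in SCR and 420625 and 519688 in WT. G2 lies below SCR. In G2/SCR 13 of 36 (36.1%) were lower and 3 (8.33%) higher at adjusted p, against 23.4% and 25.7% of all genes. The median of the 36 was -0.11 on the log2 scale. In G2/WT 29 (80.6%) were lower and 1 (2.78%) higher (median -0.42), against 25.4% and 27.2%. In SCR/WT 25 (69.4%) were lower and 0 higher (median -0.33), against 18.3% and 17.0%.

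NDUFS7 (GSHG0020982, chromosome 19 from 1383527 to 1395588 of hg38) encodes an iron-sulphur subunit of the arm of complex I that reduces ubiquinone. Its normalized counts were 1202, 1363 and 1779 in G2, 2679, 2193 and 2721 in SCR and 3929 and 2645 in WT. All G2 libraries lie below all controls, while G2 itself is spread from 1202 to 1779. By limma the log2 fold change was -0.82 (SE 0.16, adjusted p = 0.0011) in G2/SCR and -1.17 (SE 0.18, adjusted p = 0.00015) in G2/WT, and it ran from -0.98 to -0.69 in G2/SCR when a library was left out.

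NDUFB4 (GSHG0030340, chromosome 3 from 120596309 to 120602507), an accessory subunit of the membrane arm, had 10858, 10276 and 10005 in G2, 16535, 16558 and 17106 in SCR and 22460.1 and 19969 in WT. All G2 libraries lie below all controls. Its log2 fold change was -0.69 (SE 0.06, adjusted p = 8.8e-07) in G2/SCR and -1.03 (SE 0.06, adjusted p = 7.2e-08) in G2/WT by limma, which is 1.61-fold and 2.04-fold lower. Both calls held under each scaling and with each library left out.

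NDUFB2 (GSHG0040014, chromosome 7 from 140696681 to 140706646), another accessory subunit of the membrane arm, went the other way, with 21807, 23254 and 23182 in G2, 15567, 14551 and 14891 in SCR and 21660.5 and 16477 in WT. G2 lies above every control, although WT replicate 1 comes close. The log2 fold change was 0.60 (SE 0.08, adjusted p = 7.8e-05) in G2/SCR (limma), a fold of 1.52. It fell under the fold minimum with equal totals (log2 0.51) and without G2 replicate 2 or SCR replicate 2 (both 0.58), while staying past the adjusted threshold. In G2/WT it was 0.27 (SE 0.09, adjusted p = 0.029) by limma. This call was lost without G2 replicate 2, G2 replicate 3 or WT replicate 2, where the value fell to 0.07.

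The other subunits of the ubiquinone and NADH arms gave smaller values. NDUFS8, a ferredoxin-like subunit, changed by -0.53 against SCR and -0.79 against WT, and NDUFV1, which binds NADH, by -0.38 and -0.66. The 75-kDa partner of NDUFV1, NDUFS1, could not be compared. NDUFV2 had -0.01 and -0.34 and NDUFS3 -0.11 and -0.47. Among accessory subunits NDUFA11 changed by -0.43 and -0.87 and NDUFB7 by -0.44 and -0.79, its G2/SCR call lost without G2 replicate 1 or SCR replicate 1. NDUFA6 and NDUFB3 were higher at adjusted p in G2/SCR, by 0.33 and 0.24, and had -0.17 and -0.06 in G2/WT, past no threshold. The call of NDUFB3 was lost without G2 replicate 1, G2 replicate 2, SCR replicate 1 or SCR replicate 3.

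Complex II, succinate dehydrogenase, oxidizes succinate in the citric acid cycle and has no subunit from mitochondrial DNA. Its 4 genes all had higher values in G2 than in SCR (median 0.16 on the log2 scale), except that SDHB came to -0.01 with equal totals. SDHC and SDHD passed the adjusted threshold. Their summed level was 30410 to 30788 in G2, 26302 to 26816 in SCR and 30455 and 34997 in WT. As a percentage of the summed level of complex I this was 8.71% to 8.93% in G2, 6.96% to 7.12% in SCR and 6.73% and 7.24% in WT, a ratio that no scaling changes, and G2 lies above all 5 controls.

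SDHD (GSHG0006731, chromosome 11 from 112086873 to 112095794), one of the membrane anchors, had the largest rise of the 4 on the log2 scale, with 6057, 6250.1 and 6562 in G2, 4599, 5041 and 4767 in SCR and 5478 and 4919.6 in WT. The G2 libraries lie above every control. It changed by 0.39 (SE 0.06, adjusted p = 0.00023) in G2/SCR and 0.28 (SE 0.07, adjusted p = 0.0052) in G2/WT (limma), and both calls held with each library left out. SDHC, the other anchor, changed by 0.19 (SE 0.06, adjusted p = 0.019) in G2/SCR by limma. This call was lost with equal totals and without G2 replicate 1, G2 replicate 3, SCR replicate 2 or SCR replicate 3. The catalytic flavoprotein SDHA and the iron-sulphur subunit SDHB had 0.12 and 0.08 in G2/SCR, past no threshold, and -0.28 and -0.36 in G2/WT, where both were lower at adjusted p. SDHAF1, which helps insert the iron-sulphur clusters of SDHB, had 863, 773 and 882 in G2, 1484, 1350.5 and 1619.6 in SCR and 1641 and 1210.3 in WT. It changed by -0.82 (SE 0.11, adjusted p = 7.0e-05) in G2/SCR and -0.75 (SE 0.12, adjusted p = 0.00032) in G2/WT (limma). In G2/SCR this is against the direction of the 4 subunits. Its G2/WT fold fell below 1.5 without WT replicate 1 (-0.53). SDHAF2, SDHAF3 and SDHAF4 had 0.16, -0.26 and 0.20 in G2/SCR, of which SDHAF3 was lower at adjusted p, a call lost without SCR replicate 2.

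Complex III carries electrons from ubiquinol to cytochrome c. In G2/SCR 4 of 9 nuclear subunits (44.4%) were lower and 1 (11.1%) higher at adjusted p, against 23.4% and 25.7% of all genes. In G2/WT 8 (88.9%) were lower and 1 (11.1%) higher, against 25.4% and 27.2%. In SCR/WT 6 (66.7%) were lower and 0 higher, against 18.3% and 17.0%. The summed level was 117341 to 119127 in G2, 130746 to 134215 in SCR and 144451 and 180977 in WT. UQCRH (GSHG0000547), the acidic hinge protein that binds cytochrome c1, had 30319, 29321 and 28667 in G2, 39323, 42887 and 40005 in SCR and 56800.3 and 46416 in WT, with G2 below all controls. It changed by -0.47 (SE 0.07, adjusted p = 0.00015) in G2/SCR and -0.80 (SE 0.08, adjusted p = 4.1e-06) in G2/WT (limma). Its intronless copy UQCRHL, with nearly the same sequence, changed by -0.57 and -0.86 at a level of 1848 to 3632, and reads of the pair may be split between them, so neither value is certain. UQCRB (GSHG0042579), which lines the ubiquinone site, was the gene of the complex that rose, with 25672, 24299.8 and 23488 in G2, 18298, 18808 and 19809 in SCR and 23209 and 20054 in WT. It changed by 0.37 (SE 0.06, adjusted p = 0.00042) in G2/SCR and 0.18 (SE 0.07, adjusted p = 0.047) in G2/WT by limma. The second call was lost without G2 replicate 1, 2 or 3 or WT replicate 2. The core proteins UQCRC1 and UQCRC2, the Rieske protein UQCRFS1 and cytochrome c1 (CYC1) had 0.04, -0.15, 0.05 and -0.01 in G2/SCR, of which UQCRC2 was lower at adjusted p, a call kept in 1 of 6 fits that left out a library (without SCR replicate 1).

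In complex IV, cytochrome c oxidase, 5 of 12 nuclear subunits (41.7%) were lower and 1 (8.33%) higher at adjusted p in G2/SCR. Over all genes tested the shares were 23.4% and 25.7%. In G2/WT 9 (75.0%) were lower and 1 (8.33%) higher, against 25.4% and 27.2%. In SCR/WT 7 (58.3%) were lower and 0 higher, against 18.3% and 17.0%. The summed level was 337705 to 344056 in G2, 351467 to 370806 in SCR and 384401 and 496664 in WT. COX5B (GSHG0024102), a zinc-binding subunit, had 21378, 23464 and 25020.1 in G2, 32901, 29487 and 27713 in SCR and 40634 and 27099 in WT. G2 lies below the controls, with WT replicate 2 and SCR replicate 3 next to it. The log2 fold change was -0.37 (SE 0.12, adjusted p = 0.025) in G2/SCR (limma) and passed no threshold without G2 replicate 1, G2 replicate 2, SCR replicate 1 or SCR replicate 2. COX7C and COX6A1 changed by -0.30 and -0.28 in G2/SCR, and COX4I1, the largest nuclear subunit, by -0.23, a call lost without G2 replicate 3, SCR replicate 1 or SCR replicate 2. COX6C (GSHG0042593) rose, with 22207, 20959 and 20486 in G2, 14005, 15517 and 17188 in SCR and 19005 and 16685 in WT. The G2 libraries lie above every control. It changed by 0.45 (SE 0.08, adjusted p = 0.00037) in G2/SCR and 0.25 (SE 0.08, adjusted p = 0.026) in G2/WT by limma, the second lost without G2 replicate 1, G2 replicate 2 or WT replicate 2. COX7A2, COX8A and COX7B differed by at most 0.01 between G2 and SCR, with SE of 0.08 to 0.09.

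In complex V, ATP synthase, 5 of 17 nuclear subunits (29.4%) were lower and 1 (5.88%) higher at adjusted p in G2/SCR. Over all genes tested the shares were 23.4% and 25.7%. In G2/WT 16 (94.1%) were lower and 1 (5.88%) higher, against 25.4% and 27.2%. In SCR/WT 15 (88.2%) were lower and 0 higher, against 18.3% and 17.0%. The summed level was 393165 to 400611 in G2 and 399331 to 407395 in SCR, which overlap, and 448390 and 551755 in WT. ATP5F1D (GSHG0020977), the delta subunit of the rotor, had 3265, 3203 and 4114 in G2, 5338, 4667 and 5714 in SCR and 7796 and 5483 in WT. It changed by -0.58 (SE 0.13, adjusted p = 0.0029) in G2/SCR, just short of the fold minimum, and by -0.90 (SE 0.14, adjusted p = 0.00024) in G2/WT (limma). ATP5F1E (GSHG0027525), the epsilon subunit that sits beside delta in the same stalk, went the other way, with 50992, 49464 and 51377 in G2, 37468, 38359.6 and 36859 in SCR and 45095 and 35579 in WT. It changed by 0.43 (SE 0.07, adjusted p = 0.00039) in G2/SCR and 0.34 (SE 0.08, adjusted p = 0.0042) in G2/WT by limma. The catalytic subunits ATP5F1A and ATP5F1B had -0.18 and -0.05 in G2/SCR, of which ATP5F1A was lower at adjusted p, and the gamma subunit ATP5F1C had 0.02. The 3 genes of the membrane ring protein c, ATP5MC1, ATP5MC2 and ATP5MC3, had -0.10, -0.19 and 0.15, of which ATP5MC2 was lower at adjusted p, a call lost whichever library was left out.

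**Figure D3:**
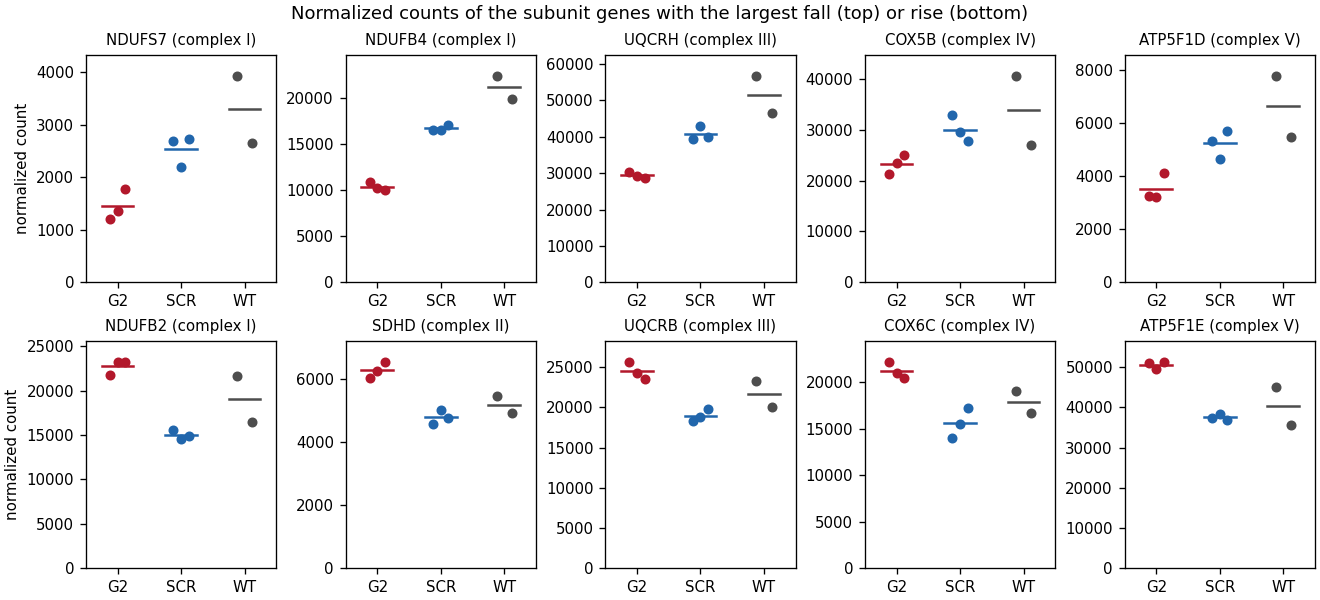
Normalized counts (vertical axes, from 0) of 10 subunit genes in each library of G2, SCR and WT; points are libraries and bars are group means. The upper row holds genes whose G2 libraries lie below the 5 controls and the lower row the 5 subunit genes whose G2 libraries lie above them; the log2 fold changes in G2/SCR run from -0.82 (NDUFS7) to 0.60 (NDUFB2).

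Of the 9 isoforms 5 passed the filter on low values. NDUFA4L2, a hypoxia-induced paralogue of NDUFA4, had 82.8, 113 and 105 in G2, 142, 116 and 119 in SCR and 259.5 and 236 in WT. WT is higher than the edited lines. The log2 fold change was -0.98 (SE 0.18, adjusted p = 0.0015) in SCR/WT and -1.31 (SE 0.18, adjusted p = 7.6e-05) in G2/WT by limma. G2/SCR gave -0.33 (SE 0.16, adjusted p = 0.11) by the same test. COX4I2, the lung isoform of COX4I1, stood at 29.5 to 70.9 in the 8 libraries, beside 44157 to 72132 for COX4I1, and passed no threshold in any comparison. COX6B2, of testis, was at 0 to 26.3. The entry that holds COX8C is merged with UNC79, a neuronal channel protein, so its log2 fold change of -1.50 in G2/SCR cannot be given to COX8C. COX6A2 and COX7A1 of muscle, COX7B2 and ATP5MGL were not tested: COX7A1 and COX7B2 were listed at 0 in every library, COX6A2 at 0 in all but G2 replicate 1 (2.82), and ATP5MGL at 0 to 12.9. Of the 4 pseudogenes 0 were called in any comparison by limma, 0 also at an unadjusted p up to 0.05, with values of -0.16 to 0.41 in G2/SCR.

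Per kilobase of the GENCODE canonical transcript, mean normalized counts over the 3 lines placed complexes IV and V highest, with medians of 43399 over 12 and 23368 over 17 subunit genes. Complex I had a median of 11371 over 37 genes with NDUFS1 counted, complex III had 5535 over 9 and complex II 4001 over 4. The highest gene of each complex was ATP5MF (98327), COX7A2 (89697), UQCRH (75594), NDUFS5 (71728) or SDHC (12817), and the lowest in their complexes were SDHA (1387), UQCRFS1 (1738), ATP5PB (3064) and COX7A2L (7172), besides NDUFS1. The mitochondrial entries had line means of 17661 to 122180 per kilobase of the entry.

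The mitochondrial genome is read from both strands as long transcripts that are cut at the tRNAs, and most of the resulting mRNAs receive a short poly(A) tail, so a poly(A) library holds them. The entry with MT-ND1 and MT-ND2 (chrM:1670-5512 in hg38) also spans the 16S ribosomal RNA, which makes up 40.6% of its length, and its reads cannot be divided between them. The second entry (chrM:5584-12142) holds MT-CO1, MT-CO2, MT-ATP8, MT-ATP6, MT-CO3, MT-ND3, MT-ND4L and MT-ND4. MT-ND5 and MT-ND6 share the next (chrM:12337-14644), where MT-ND6 lies on the opposite strand, and MT-CYB is in the fourth (chrM:14761-15953). The counting is not stated to use strand, and reads from copies of mitochondrial DNA in the nucleus were not told apart.

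The MT-ND1 and MT-ND2 entry, which codes for core subunits of complex I, had 422768, 409308 and 414644 in G2, 270366, 275177 and 274642 in SCR and 361966 and 348318 in WT. G2 lies above all controls and WT above SCR. This entry changed by 0.60 (SE 0.05, adjusted p = 5.7e-07) in G2/SCR, 0.23 (SE 0.05, adjusted p = 0.0034) in G2/WT and -0.38 (SE 0.05, adjusted p = 0.00023) in SCR/WT (limma).

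The MT-ND5 and MT-ND6 entry, of the proton-pumping arm of complex I, had 60104, 64781 and 60276 in G2, 40824, 39430.4 and 42027 in SCR and 57496 and 65746 in WT. G2 and WT overlap and SCR lies below both. The log2 fold change was 0.60 (SE 0.06, adjusted p = 4.7e-06) in G2/SCR, 0.00 (SE 0.07, adjusted p = 0.96) in G2/WT and -0.59 (SE 0.07, adjusted p = 4.5e-05) in SCR/WT by limma.

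The entry from MT-CO1 to MT-ND4, with the catalytic core of complex IV, had 538611, 555425 and 528535 in G2, 479693, 461188 and 527074 in SCR and 785979 and 816784 in WT. Here WT stands above the edited lines, and G2 lies just above SCR with SCR replicate 3 next to it. The log2 fold change was 0.15 (SE 0.06, adjusted p = 0.06) in G2/SCR, -0.57 (SE 0.07, adjusted p = 2.0e-05) in G2/WT and -0.71 (SE 0.07, adjusted p = 1.2e-05) in SCR/WT by limma.

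MT-CYB, the mitochondrial subunit of complex III, had 39997, 43886 and 40734 in G2, 37536, 35050.5 and 41505 in SCR and 61933 and 64592 in WT. SCR and G2 overlap and WT lies above both. Its log2 fold change was 0.13 (SE 0.06, adjusted p = 0.12) in G2/SCR, -0.61 (SE 0.07, adjusted p = 2.2e-05) in G2/WT and -0.74 (SE 0.07, adjusted p = 1.7e-05) in SCR/WT (limma).

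**Figure D4:**
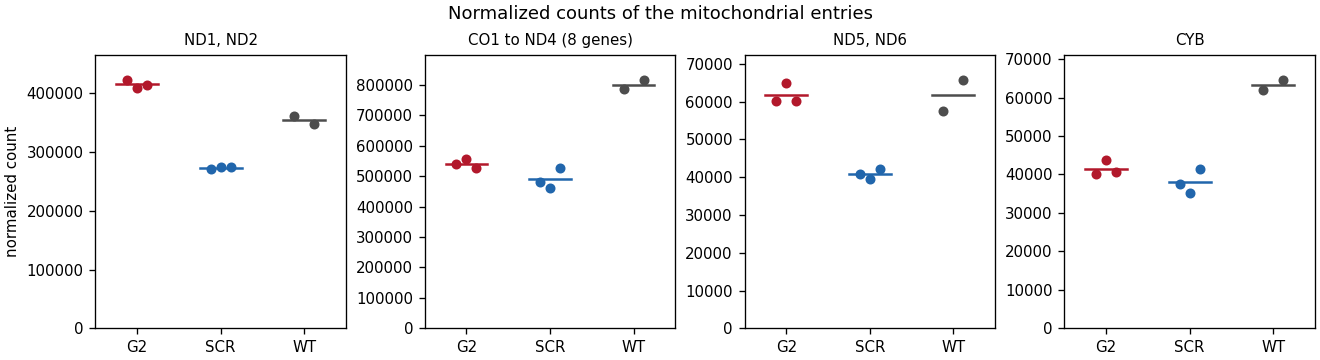
Normalized counts (vertical axes, from 0) of the 4 entries of the mitochondrial genome that hold coding genes, in each library; points are libraries and bars are group means. The entries with ND1 and ND2 and with ND5 and ND6 are higher in G2 than in SCR (log2 fold change 0.60 each), while the other entries are highest in WT; with equal library totals the rises of 0.60 become 0.51.

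Of the 4 entries, 2 rose past the fold minimum in G2/SCR, 1 fell in G2/WT (MT-CYB) and 3 fell in SCR/WT. Over all genes tested the shares in these directions were 15.1%, 12.2% and 5.63%. With equal library totals none passed the fold minimum in any comparison (0 of 4 in each by limma). At adjusted p 2 stayed higher in G2/SCR (against 21.0% of all genes) and 3 lower in SCR/WT (against 5.83%). In G2/WT 2 were lower and 1 higher, against 15.8% and 36.5%. The rise of the MT-ND5 and MT-ND6 entry fell under the fold minimum without G2 replicate 2 (0.56) or SCR replicate 2 (0.57). The fall of MT-CYB in G2/WT did so without G2 replicate 1 or WT replicate 2 (both -0.58), and the fall of the MT-ND5 and MT-ND6 entry in SCR/WT without SCR replicate 2 (-0.57) or WT replicate 2 (-0.50). Without SCR replicate 3 the entry from MT-CO1 to MT-ND4 (0.20) and MT-CYB (0.19) were also higher in G2/SCR at adjusted p. The entries did not move alike, which ratios within a library show without any scaling. The MT-ND5 and MT-ND6 entry stood at 1.48 to 1.503 times the MT-CYB entry in G2, 1.01 to 1.12 times in SCR and 0.928 and 1.02 times in WT. The MT-ND1 and MT-ND2 entry stood at 0.737 to 0.785 of the MT-CO1 to MT-ND4 entry in G2, 0.521 to 0.597 in SCR and 0.426 and 0.461 in WT. G2 lies above all 5 controls in both ratios. MT-CYB against the MT-CO1 to MT-ND4 entry differed less, at 0.0743 to 0.0790 in G2, 0.0760 to 0.0787 in SCR and 0.0788 and 0.0791 in WT.

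The sum of the 4 entries was 0.851 to 0.864 of the summed nuclear subunits in G2, 0.625 to 0.687 in SCR and 0.710 and 0.907 in WT. G2 lies above SCR, and the WT libraries lie on either side of G2. Against the summed nuclear subunits of complex IV, the entry from MT-CO1 to MT-ND4 was 1.57 to 1.61 times in G2. It was 1.27 to 1.4996 times in SCR, and 1.58 and 2.12 times in WT. The entry also holds genes of complexes I and V, so this is no ratio for complex IV alone. For complex III, MT-CYB was 0.341 to 0.368 of the nuclear sum in G2, 0.261 to 0.317 in SCR and 0.342 and 0.447 in WT. In each case G2 lies above SCR and is reached or passed by a WT library.

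The log2 fold changes of the subunits were lower for genes of high GC content. Across the 78 genes Pearson's r with the GC percentage of the canonical transcript was -0.41 in G2/SCR, -0.53 in G2/WT and -0.36 in SCR/WT. Over 15339 genes with a GC value (81.0% of those tested) it was -0.08, -0.08 and -0.01. The points are genes that share the same libraries. Between libraries of 1 line, r over the subunits was 0.67 for G2 replicate 3 against G2 replicate 1. It was 0.44 for WT replicate 1 against WT replicate 2 and -0.16 for SCR replicate 3 against SCR replicate 1. The genes that fell most included NDUFS7 (66.9% GC) and ATP5F1D (69.5%), while ATP5F1E (38.4%), UQCRB (39.1%), SDHD (39.8%) and COX6C (40.5%) were among those that rose; NDUFB4 (43.8%) and NDUFB2 (54.2%) lie off this trend. With the GC trend over all genes removed in each library, an alternative chosen after seeing the data, the subunit medians were -0.09, -0.40 and -0.29. NDUFS7 then changed by -0.64 in G2/SCR and ATP5F1D by -0.33, and in G2/WT ATP5F1D changed by -0.61. The G2/WT values of SDHD (0.18), UQCRB (0.07), COX6C (0.17) and ATP5F1E (0.21) were past no threshold while their G2/SCR calls held (0.26 to 0.37). The part of GC content in the calls under the deposited values was not tested beyond this.

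**Figure D5:**
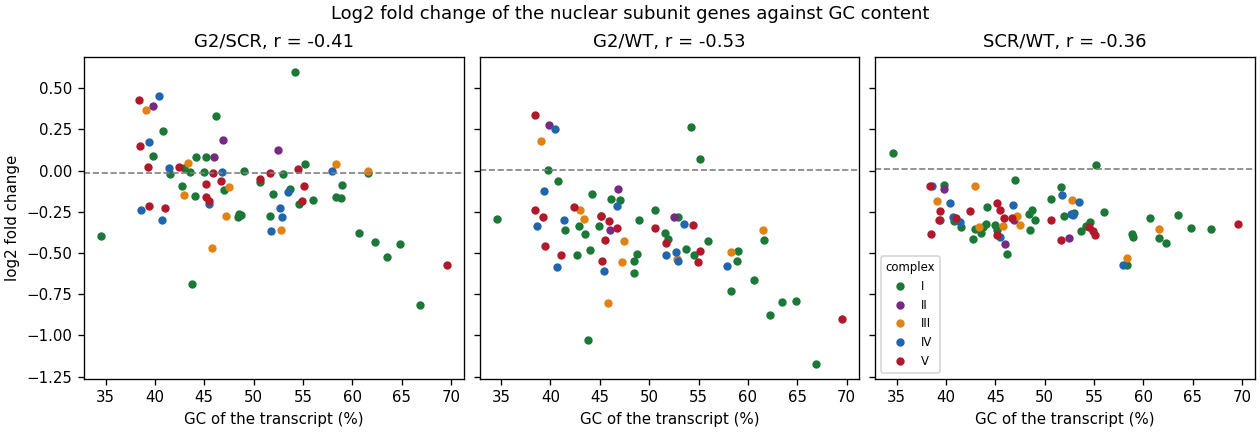
Log2 fold change (vertical axis) of the 78 nuclear subunit genes against the GC percentage of their canonical transcript (horizontal axis) in the 3 comparisons, coloured by complex; the dashed line is the median of all genes tested. Genes of high GC lie lower, with r of -0.41 in G2/SCR, -0.53 in G2/WT and -0.36 in SCR/WT.

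Position on the chromosomes was looked at for chromosomes 7 and 8. They were chosen because earlier results of these same data showed segments there with higher expression in G2. On chromosome 8, UQCRB and COX6C were higher in G2/SCR (0.37 and 0.45), while NDUFB9 and CYC1 had -0.02 and -0.01. Over all 686 tested genes of the chromosome the median was 0.20, with 41.0% higher and 16.6% lower at adjusted p. On chromosome 7, NDUFB2 was higher (0.60), NDUFA4 had 0.17, ATP5MF -0.02 and NDUFA5 -0.40, the last lower at adjusted p. The 1005 tested genes of that chromosome had a median of -0.03, with 28.3% higher and 24.4% lower at adjusted p. The 70 tested subunits on other chromosomes had a median of -0.10 in G2/SCR. At adjusted p 26 (37.1%) were lower and 5 (7.14%) higher, against 23.4% and 25.7% of all genes. Gene copy number was not measured.

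The motifs were found among genes that fell and among genes that rose. Among the 25 lower calls of G2/SCR with a promoter sequence 15 held an NRF1, ETS or YY1 motif, and among the 5 higher calls 2 did, beside 41 of all 65. Of the factors themselves, NRF1 had 0.29 in G2/SCR and -0.37 in G2/WT, GABPA 0.13 and -0.07, its partner GABPB1 0.44 and -0.34, and YY1 0.13 and -0.02. In the list of 15 regulators of mitochondrial biogenesis 6 (40.0%) were higher and 4 (26.7%) lower at adjusted p in G2/SCR, against 25.7% and 23.4% of all genes. The largest fall among those averaging 100 or more was that of the nuclear receptor ESRRG (-0.69).

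Lists of other mitochondrial genes give the setting, and their counts stand against 23.4% of all genes lower and 25.7% higher at adjusted p in G2/SCR. Of 19 assembly factors of complex I, 8 (42.1%) were lower and 1 higher at adjusted p in G2/SCR. In G2/WT 13 (68.4%) were lower and 1 (5.26%) higher, against 25.4% and 27.2% of all genes. ECSIT, which joins the assembly complex of the membrane arm, had 1282 ± 90.0 (SD, n = 3) in G2, beside 2322 ± 119.9 in the 3 SCR libraries and 2583 ± 349 in the 2 WT libraries. It changed by -0.86 (SE 0.08, adjusted p = 4.2e-06) in G2/SCR (limma). The largest rise was that of NDUFAF6 (0.31). Of 6 factors of complex III found among 9 listed, 1 was lower in G2/SCR, UQCC1 (-0.31). Of 26 factors of complex IV, 13 (50.0%) were lower and 4 (15.4%) higher, from TMEM177 (-0.53) to COX20 (0.45). Of 7 of ATP synthase, 1 was lower and 3 higher, from the inhibitor ATP5IF1 (-0.59) to TMEM242 (0.48).

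Among 13 carriers and electron donors around the chain, 3 (23.1%) were lower and 1 (7.69%) higher at adjusted p in G2/SCR, a lower share next to the 23.4% of all genes. The ADP/ATP carrier SLC25A6 changed by -0.67 (SE 0.07, adjusted p = 1.0e-05) and the glycerol phosphate dehydrogenase GPD2 by 0.64 (SE 0.12, adjusted p = 0.0011) (limma), while CYCS, cytochrome c itself, had 0.08. Of 13 genes of ubiquinone synthesis 6 (46.2%) were lower and 2 (15.4%) higher. COQ8A, a kinase-like protein needed for ubiquinone synthesis, had 881 ± 50.4 (SD, n = 3) in G2, beside 2482 ± 124 in the 3 SCR libraries and 1767 ± 43.4 in the 2 WT libraries. Its log2 fold change in G2/SCR was -1.49 (SE 0.07, adjusted p = 5.4e-09) by limma, the largest fall in these lists. COQ10B had 0.49. Of 19 genes of the citric acid cycle and pyruvate entry 5 (26.3%, near the 23.4% of all genes) were lower and 2 higher, from pyruvate carboxylase PC (-0.59) to SUCLG2 (0.83).

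Of 34 genes that maintain and express mitochondrial DNA, 17 (50.0%) were lower and 3 (8.82%) higher at adjusted p in G2/SCR. In G2/WT 18 (52.9%) were lower and 4 (11.8%) higher, against 25.4% and 27.2% of all genes. The helicase TWNK had 5237 ± 196 (SD, n = 3) in G2, beside 9324 ± 387 in the 3 SCR libraries and 9239.6 ± 473 in the 2 WT libraries. It changed by -0.83 (SE 0.06, adjusted p = 1.5e-07) in G2/SCR (limma). TFB1M, a 12S ribosomal RNA methyltransferase, had -0.62, the polymerase POLRMT -0.43, the packaging factor TFAM -0.18, and the mRNA-stabilizing pair LRPPRC and SLIRP -0.38 and -0.41, in G2/SCR. MTERF3, a repressor of mitochondrial transcription, was higher by 0.86 (SE 0.08, adjusted p = 3.1e-06) and the exoribonuclease REXO2 by 0.84 (SE 0.07, adjusted p = 9.3e-07) (limma). FASTK, whose short form acts on MT-ND6 mRNA, was higher by 0.64 (SE 0.10, adjusted p = 0.0003) (limma). MTERF3 had 1316 ± 20.3 (SD, n = 3) in G2, beside 726 ± 2.86 in the 3 SCR libraries and 802 ± 109 in the 2 WT libraries. It lies on chromosome 8, whose genes had a median of 0.20.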

How the data were processed

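RNA of 8 SH-SY5Y libraries (3 G2, 3 SCR and 2 WT) was sequenced by the study after poly(A) selection. Reads were mapped by the authors with STAR (hg38) and assigned to the genes of the FAST DB annotation by featureCounts (Subread 1.5.0), after which each library's counts were divided by its DESeq2 size factor; the deposited table holds these values, a signal that is neither whole counts nor length-corrected. The strand and multi-mapping settings are not given in the sources used here. Whole counts were recovered from the deposited signal in 100% of values at a tolerance of 0.02, for a count-model alternative; in WT replicate 2 the step is too near 1 for this to be a check.

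The log2 of the value plus 1 was fitted with limma 3.58.1 (trend, 1 fit over the 18947 genes averaging 10 or more, the line as group), so all comparisons share 1 estimate of the spread. A fold change is on this scale. Calls took a fold of at least 1.5 with an unadjusted p of at most 0.05, as in the study, or an adjusted p (Benjamini-Hochberg) up to 0.05. DESeq2 1.42.0 and edgeR 4.0.16 ran on the recovered counts as alternatives. The fit was tested on simulated data.

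The members and gene lists were chosen with earlier results of these data known. The entries described one by one are the mitochondrial ones, subunits called in both G2 comparisons, the largest rise and fall of each complex in G2/SCR among subunits with a mean of at least 100, isoforms, members on chromosomes 7 and 8, and the largest rise and fall of each other list. Further subunits were named for their role after their values were seen.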

Additional observations from a re-analysis of the deposited data

How the results depend on the processing

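The 91 nuclear entries tested include isoforms, pseudogenes and assembly factors. With the fold minimum 5 were called in G2/SCR (4 lower, 1 higher), 15 in G2/WT (all lower) and 1 in SCR/WT (lower). Over all genes tested 11.8%, 12.2% and 5.63% were lower by this rule and 15.1%, 17.7% and 10.7% higher. The medians of the 91 were -0.09, -0.36 and -0.30. For the 4 mitochondrial entries the calls were 2, 1 and 3 and the medians 0.37, -0.28 and -0.65. At adjusted p without a fold minimum the nuclear calls became 39, 75 and 60 and the mitochondrial calls of G2/WT became 3. Of these nuclear calls 31, 69 and 59 were lower and 8, 6 and 1 higher. Over all genes tested 23.4%, 25.4% and 18.3% were lower at adjusted p and 25.7%, 27.2% and 17.0% higher. At a fold of at least 2 the nuclear calls became 1, 4 and 0 and the mitochondrial calls 0 in each comparison, by construction. With equal library totals the nuclear medians became -0.18, -0.18 and -0.020 and the mitochondrial medians 0.28, -0.10 and -0.38, with 0 mitochondrial calls in each comparison and 2 nuclear calls in SCR/WT. With equal totals after removal of mitochondrial, ribosomal RNA and RN7S genes the medians were -0.18 in G2/SCR and -0.092 in SCR/WT for nuclear entries and 0.29, -0.16 and -0.45 for mitochondrial entries, with 0 mitochondrial calls in each comparison and 2 nuclear calls in SCR/WT. The shift is that of the median of all genes. Without pseudogenes and isoforms SCR/WT had 0 nuclear calls. Without the mitochondrial entry that holds ribosomal RNA, an alternative chosen after seeing the data, the mitochondrial medians were 0.15 in G2/SCR and -0.57 in G2/WT, with 1 call in G2/SCR.

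Samples with the same replicate number in their titles had deviations from the line means that correlated by -0.03 to 0.04. The library names carry other numbers. By these, G2 replicate 2 pairs with SCR replicate 1 (0.046) and G2 replicate 3 with SCR replicate 3 (0.042). G2 replicate 1 also pairs with WT replicate 1 (-0.032) and SCR replicate 2 with WT replicate 2 (0.010). A block by the numbers in the names was not tested. With the replicate number of the titles as a block, SCR/WT had 3 nuclear calls and G2/WT 2 mitochondrial calls, and the other counts stayed within 1.5 times. Leaving out 1 library gave 1 to 2 mitochondrial calls in G2/SCR and 0 to 2 in G2/WT, and 9 to 36 nuclear calls in G2/WT (9 without WT replicate 1, 36 without WT replicate 2) and 1 to 10 in SCR/WT (10 without WT replicate 2), where the lone WT library is assumed to vary like the other lines. The nuclear medians then ran from -0.10 to -0.079 in G2/SCR, -0.52 to -0.27 in G2/WT and -0.44 to -0.14 in SCR/WT. PRPF40B in SCR/WT, -0.11, ran from -0.23 (without WT replicate 2, past the threshold) to 0.0069 (without WT replicate 1). Apart from the main values, 192 values counted as the same, 50 moved, 1 turned and 1 became stronger. Part of the 192 could not change. Leaving out nuclear pseudogenes and isoforms cannot move a mitochondrial value, nor can leaving out a mitochondrial entry move a nuclear value. A fit of only the 2 lines compared keeps each median. A count was the same when equal to the main count or within 1.5 times of it. A median was the same when it shifted by less than the spread between libraries of a line. PRPF40B was the same when its direction and its side of the p threshold were kept. The cause was not tested where none is named. DESeq2 called 4973 genes and edgeR 5093 in G2/SCR, of which 4860 and 4937 were among the 5088 of limma. With 2 WT libraries that stand apart, the size of the differences from WT is the least certain value here.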

Other observations

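Among the other mitochondrial lists, 4 genes with lower values in SCR than in WT, chosen after their values were seen, are COX17, UQCC3, GABPB1 and NRF1. COX17, a copper chaperone of complex IV, had normalized counts of 1551, 1830.0 and 1840.3 in SCR, 2126, 2059 and 2177 in G2 and 3829 and 3716 in WT, with log2 fold changes of -1.12 in SCR/WT and -0.83 in G2/WT. UQCC3, an assembly factor of complex III, had 920, 933 and 1034 in SCR, 780.0, 811 and 962 in G2 and 1608 and 1529 in WT, with -0.71 in SCR/WT and -0.89 in G2/WT. WT lies above both edited lines for these genes. GABPB1, a partner of the ETS factor GABPA, had 894, 949.7 and 921 in SCR, 1267, 1300 and 1186 in G2 and 1593 and 1564 in WT, and NRF1 had 731, 771 and 726 in SCR, 909, 950.4 and 866 in G2 and 1202 and 1143 in WT. For both regulators G2 lies between SCR and WT without overlap, whereas the medians of the nuclear subunits have SCR between G2 and WT. All of these comparisons with WT passed an adjusted p of 0.05 by limma; with equal library totals the medians of all genes shift by the amounts given for the subunits.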
